A study of Mus musculus with 6 samples.

Results

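The 10 genes described here encode the first steps of interferon signalling and its brakes: the receptor chains Ifnar1, Ifnar2, Ifngr1 and Ifngr2, the kinases Jak1, Jak2 and Tyk2, the transcription factor Stat3, and the inhibitors Socs1 and Socs3. They were taken by name, and each was found as 1 of the 20273 gene rows of the deposited table. All 10 were among the 11803 genes with enough signal to be tested, a limit of 1 CPM (reads of a gene scaled to the library total) in at least 3 libraries. Between ERBB2 KO and WT cells none of the 10 genes passed the test. Stat3 had the largest difference of the 10, and 1 ERBB2 KO library held the highest level of 7 of them and the lowest level of Socs1.

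Interferons of type I bind a receptor made of the IFNAR1 and IFNAR2 chains, which carry TYK2 and JAK1, while interferon gamma binds IFNGR1 and IFNGR2, which carry JAK1 and JAK2. The activated kinases phosphorylate STAT proteins, and these move to the nucleus and switch on target genes, among them the genes of antigen presentation. STAT3 is the main STAT of the interleukin-6 family of cytokines, which signal through the shared receptor chain gp130. Socs1 and Socs3 are themselves STAT target genes, and their proteins bind the kinases or receptors and shut the signal down.

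RNA of cultured cells from mouse small cell lung cancer (SCLC), a tumour of the lung, was sequenced in bulk in 3 WT and 3 ERBB2 KO libraries, in a study of how ERBB2, a receptor tyrosine kinase of the EGF receptor family, relates to immune evasion. For the ERBB2 KO cells a Cas9 construct was transfected, cells were selected with puromycin, and single clones were sorted. The labels give no cytokine or drug treatment of the sequenced cells, and give the same tissue, cell line and culture for both groups. The study calls the 3 libraries of each group biological replicates. Whether the ERBB2 KO libraries are 1 clone or several is not given in the sources used here, and every p below measures the spread between these libraries.

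The libraries held 8927461 (ERBB2 KO 1) to 13255671 reads (WT 3), and 3 reads, taken as the limit of detection for counting error only, equalled 0.226 to 0.336 CPM. The libraries did not fall into their labelled groups over all genes. By root mean square distance of log2(CPM + 1), WT 1 lay 0.63 and 0.66 from ERBB2 KO 2 and ERBB2 KO 3 but 0.91 and 0.82 from WT 2 and WT 3, and ERBB2 KO 1 lay 0.91 to 1.10 from every other library. Xist, the transcript of the inactive X chromosome, had 208 and 178 CPM in WT 2 and WT 3 and at most 0.112 CPM in the other 4 libraries, and whether the libraries share 1 source cannot be told from the labels. Each difference of a named gene is therefore also given without ERBB2 KO 1 and with WT 1 as the only WT library (against WT 1 alone). The latter alternative was chosen after seeing the data. Erbb2 itself had 10.7, 3.95 and 6.64 CPM in WT 1 to WT 3 and 12.1, 6.19 and 2.80 CPM in ERBB2 KO 1 to ERBB2 KO 3, and with the edited site not given in the sources used here its transcript does not check the labels.

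Markers of the cell type were only partly present. Of 12 neuroendocrine and SCLC markers 6 had a row, and Chgb, Syp and Dll3 stayed under 1 CPM in every library, while Ncam1 had 277 to 1253 CPM in WT, against 121 to 353 CPM after ERBB2 KO. The epithelial keratins Krt8 and Krt18 had 282 to 1103 CPM in every library, and Krt19 had 17.2 to 253 CPM in 5 libraries against 0.112 CPM in ERBB2 KO 1. The summed level of the 6 fibroblast markers with a row was 54.7 to 229 CPM in WT, against 49.0 to 321 CPM after ERBB2 KO, with the top value in ERBB2 KO 1 through Dcn alone at 267 CPM. Without Dcn the sum was 54.0 CPM in ERBB2 KO 1, inside the range of the other libraries (39.4 to 207 CPM). Of the 6 markers 3 were higher and 3 lower after ERBB2 KO by the estimate, and 3 were highest in ERBB2 KO 1, Pdgfra among them (30.5 CPM). The collagens did not share this, since Col1a1 and Col1a2 were at 0.896 CPM in ERBB2 KO 1 against 2.66 to 200 CPM in WT, and Col3a1 was highest in ERBB2 KO 2 (72.3 CPM). The summed level of the 5 leukocyte markers with a row was 13.7 to 22.2 CPM in WT, against 12.5 to 43.8 CPM after ERBB2 KO, again highest in ERBB2 KO 1 through Lyz2 at 24.5 CPM, while the defining leukocyte marker Ptprc was at 0 there. Of the 3 tested leukocyte markers (Cd68, Lyz2 and Csf1r) 2 were higher and 1 lower by the estimate, also without ERBB2 KO 1. Their median log2 difference was 1.26, and 0.93 without ERBB2 KO 1. In 2 of these 3 the groups did not overlap, against 19.4% of all tested genes. The 4 endothelial markers with a row stayed under 1 CPM. In bulk RNA more cells of a type and more RNA per cell cannot be told apart, and the part of other cells in the levels below was not tested.

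By limma on log2(CPM + 1), 0 of the 10 genes and 0% of the 11803 genes tested were called at an adjusted p under 0.05. At an unadjusted p under 0.05 the count was 1 of the 10 (Stat3), against 13.2% of all genes, and voom, run on the reads behind the CPM values, likewise called 0 genes, with 1553 of them under an unadjusted 0.05. Adjusted p-values of the 10 genes in limma ran from 0.355 to 0.977. The WT and ERBB2 KO libraries did not separate without overlap for any of the 10, while they did so for 19.4% of all genes. On the log2 scale 7 genes were higher and 3 lower in ERBB2 KO, with a median difference of 0.09 against -0.04 over all tested genes. Without ERBB2 KO 1 the median was -0.15 (all genes -0.04), with 4 genes higher and 6 lower. Changing the pseudocount, the filter on low genes, the scaling or the tool (8 alternatives) moved no difference of the 10 genes by more than 0.12 and turned 0 of them.

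By the SD pooled over both groups, most of the 10 genes varied more than the median gene. The pooled SD of log2(CPM + 1) within groups ran from 0.28 for Ifnar1 to 0.80 for Socs3, against a median of 0.36 over all tested genes, and 8 of the 10 were above that median. The WT libraries did not agree on an order either. WT 1 was the highest WT library for Ifnar2, Stat3, Socs1 and Socs3, WT 2 for Ifnar1, Ifngr1, Ifngr2 and Jak1, and WT 3 for Jak2 and Tyk2.

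**Figure D1:**
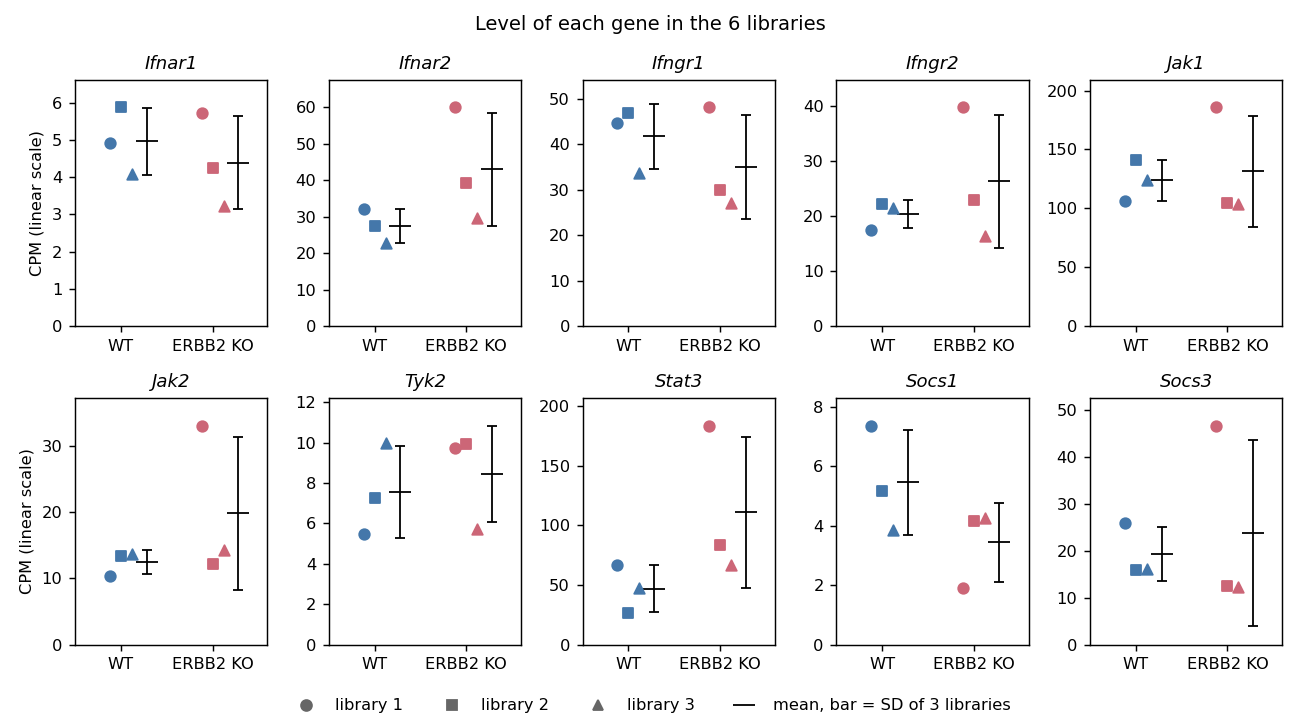
CPM of the 10 genes in each library on linear axes that start at 0. Circles, squares and triangles stand for libraries 1, 2 and 3 of WT (blue) or ERBB2 KO (red), and the black mark with its bar for the mean and SD of 3 libraries. ERBB2 KO 1 is the top point for 7 genes and the bottom point for Socs1, and in each panel the points of both groups overlap.

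Among the type I receptor chains, Ifnar2 showed the larger difference. Ifnar2, the chain that binds type I interferon tightly, had 32.0, 27.5 and 22.8 CPM in WT 1, WT 2 and WT 3 and 60.0, 39.2 and 29.6 CPM in ERBB2 KO 1, ERBB2 KO 2 and ERBB2 KO 3. ERBB2 KO 1 and ERBB2 KO 2 were above every WT library, and ERBB2 KO 3 fell between WT 1 and WT 2. The log2 difference was 0.58 ± 0.29 (SE, n = 3 per group), with a 95% confidence interval of -0.11 to 1.27 and a limma adjusted p of 0.420. It was 0.32 without ERBB2 KO 1 and 0.35 against WT 1 alone, and stayed positive under each of the 17 alternatives (0.32 to 0.81, limma adjusted p 0.142 to 0.998).

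Ifnar1, the partner chain that binds TYK2, was present at lower counts, 31 to 73 reads per library. Its levels were 4.92, 5.88 and 4.07 CPM in WT, against 5.71, 4.24 and 3.22 CPM after ERBB2 KO. The groups overlapped, with the highest value in WT 2 and the lowest in ERBB2 KO 3. The log2 difference was -0.16 ± 0.30 (limma adjusted p = 0.837), and its interval of -0.86 to 0.54 corresponds to folds between 0.553 and 1.45 on the CPM + 1 scale. It was -0.33 without ERBB2 KO 1, -0.16 against WT 1 alone and 0.0048 without ERBB2 KO 3. The chains of 1 receptor thus had differences of opposite sign, but neither was called and the difference between them was not tested.

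For the interferon gamma receptor, Ifngr1, the chain that binds the ligand, had 44.6, 47.0 and 33.6 CPM in WT, against 48.2, 29.9 and 27.0 CPM after ERBB2 KO. ERBB2 KO 2 and ERBB2 KO 3 were below every WT library, whereas ERBB2 KO 1 was the highest of the 6. The difference was -0.28 ± 0.27 on the log2 scale (interval -0.92 to 0.36, limma adjusted p = 0.666). Without ERBB2 KO 1 it was -0.52 with a limma adjusted p of 0.301, against WT 1 alone -0.39, and under all alternatives it stayed negative, between -0.52 and -0.12 (adjusted p 0.268 to 0.998).

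Ifngr2, the chain that brings JAK2 to the complex, had 17.5, 22.3 and 21.4 CPM in WT, against 39.9, 22.9 and 16.4 CPM after ERBB2 KO. The ERBB2 KO libraries enclosed the WT range, with ERBB2 KO 1 at 1.74 times the next library and ERBB2 KO 3 below all others. The log2 difference was 0.27 ± 0.33 (interval -0.51 to 1.06, limma adjusted p = 0.738). It was -0.06 without ERBB2 KO 1 and 0.48 against WT 1 alone, so its sign turned with 1 library.

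Ifnar2, Ifnar1 and Ifngr2 lie side by side on chromosome 16 in the mouse genome (GRCm38.p6, chr16:91372783-91405589, chr16:91485032-91510523 and chr16:91547059-91564007). The only other protein-coding gene of that stretch in the RefSeq annotation is Il10rb, a shared chain of the interleukin-10 and lambda interferon receptors, which starts just after Ifnar2 ends. Il10rb had 8.38, 12.4 and 5.58 CPM in WT, against 14.7, 9.33 and 8.31 CPM after ERBB2 KO, with a log2 difference of 0.29 ± 0.35 (limma adjusted p = 0.738, 0.06 without ERBB2 KO 1 and 0.29 against WT 1 alone). Within this stretch ERBB2 KO 1 was the highest library for Ifnar2, Il10rb and Ifngr2 but not for Ifnar1. Ifngr1 lies apart, on chromosome 10 (chr10:19591949-19610229).

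None of the kinases passed the test, and in each the groups overlapped. Jak1, the kinase shared by type I, type II and gp130 receptors, was the best counted of the 10 genes in WT 2, with 1754 reads. It had 106, 141 and 124 CPM in WT, against 186, 104 and 104 CPM after ERBB2 KO. ERBB2 KO 2 and ERBB2 KO 3 lay just under WT 1, the lowest WT library, and ERBB2 KO 1 above all others. The log2 difference was 0.04 ± 0.27 (limma adjusted p = 0.955), with an interval of -0.58 to 0.66, or folds of 0.667 to 1.59. It was -0.24 without ERBB2 KO 1, -0.07 without WT 1 and 0.25 against WT 1 alone.

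Jak2, the kinase of IFNGR2, had 10.4, 13.4 and 13.7 CPM in WT. In ERBB2 KO it had 33.2, 12.1 and 14.3 CPM. ERBB2 KO 1 stood at 2.31 times the next library, while ERBB2 KO 2 lay inside the WT range and ERBB2 KO 3 just above it. The difference was 0.51 ± 0.39 on the log2 scale (interval -0.40 to 1.41, limma adjusted p = 0.576) and 0.08 without ERBB2 KO 1. Against WT 1 alone it was 0.74, since WT 1 was the lowest of the 6 libraries.

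Tyk2, the kinase of IFNAR1, had 5.46, 7.25 and 9.96 CPM in WT, against 9.75, 9.92 and 5.71 CPM after ERBB2 KO. Each group held values near the top and near the bottom of the range, and the highest and next highest libraries, WT 3 and ERBB2 KO 2, were from different groups. The log2 difference was 0.14 ± 0.33 (interval -0.62 to 0.91, limma adjusted p = 0.869), based on 55 to 132 reads per library. It was 0.03 without ERBB2 KO 1, 0.52 against WT 1 alone and -0.04 without WT 1.

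Jak2 is the gene next to which Cd274 and Pdcd1lg2, encoding the PD-1 ligands, lie on chromosome 19, with Insl6, Rln1 and Plgrkt in between (Jak2 at chr19:29251803-29313095). Where Jak2 was highest, in ERBB2 KO 1, Cd274 was lowest at 1.90 CPM, against 2.09, 1.93 and 3.62 CPM in WT and 2.80 and 2.39 CPM in ERBB2 KO 2 and ERBB2 KO 3. Cd274 had a log2 difference of -0.06 ± 0.31 (limma adjusted p = 0.947), 0.05 without ERBB2 KO 1 and 0.11 against WT 1 alone, and because it overlaps Plgrkt its reads may be shared between both. Pdcd1lg2 was at 0 in 5 libraries and at 0.254 CPM, or 3 reads, in ERBB2 KO 2.

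**Figure D2:**
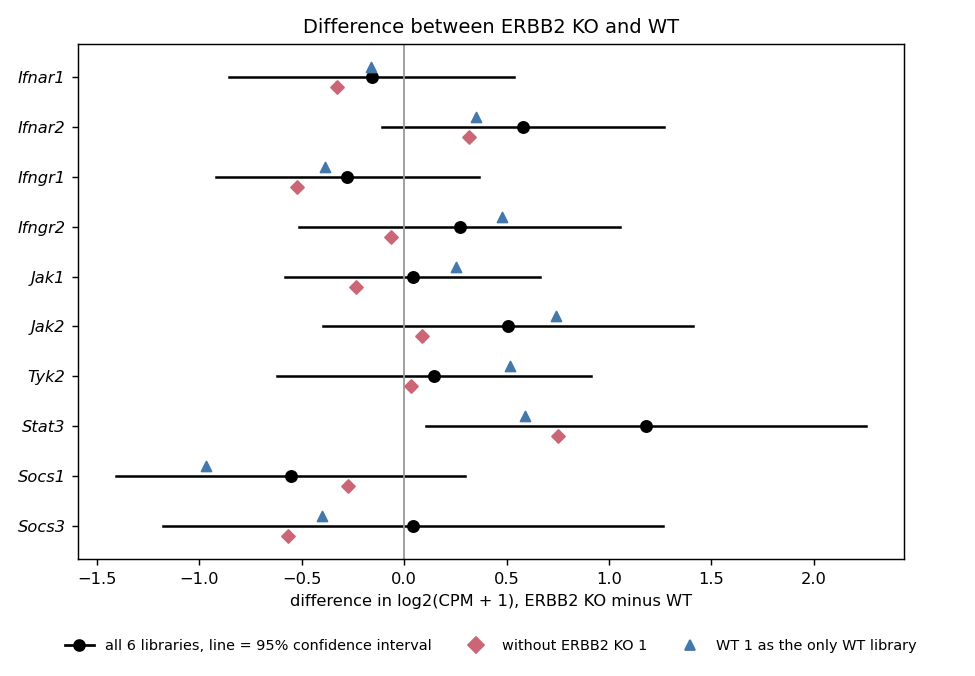
Difference between ERBB2 KO and WT in log2(CPM + 1) for each gene. Black points with lines are the estimates and 95% confidence intervals over all 6 libraries, red diamonds the estimates without ERBB2 KO 1 and blue triangles those with WT 1 as the only WT library. Stat3 alone has an interval that leaves out 0 (0.11 to 2.26), and for Ifngr2, Jak1 and Socs3 the red diamond lies on the other side of 0 from the black point.

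Stat3 had the largest difference of the 10 genes. Its levels were 66.5, 26.6 and 47.4 CPM in WT, against 184, 83.4 and 66.4 CPM after ERBB2 KO. ERBB2 KO 1 and ERBB2 KO 2 exceeded every WT library, ERBB2 KO 3 lay just under WT 1 and above the other WT libraries, and the groups overlapped only in that pair. Stat3 averaged 46.8 ± 19.9 CPM in WT, against 111 ± 63.4 CPM after ERBB2 KO (mean ± SD of 3 libraries). On the log2 scale this was a difference of 1.18 ± 0.46, a fold of 2.27 with a 95% interval of 1.08 to 4.77. Adjusted over all genes the limma p was 0.355, so Stat3 was not called.

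The size of the Stat3 difference depended on which libraries were set against each other, though not its sign. It was 0.75 without ERBB2 KO 1 (limma adjusted p = 0.347), 0.83 without WT 2 and 0.59 against WT 1 alone, and rose to 1.48 when WT 1 or ERBB2 KO 3 was left out. Over the 17 alternatives it stayed between 0.59 and 1.48, with adjusted p-values of 0.0865 to 0.998. Within WT the level of Stat3 in WT 1 was 2.50 times that in WT 2, and 85.8% of all tested genes had a smaller spread within groups than Stat3. Stat3 lies on chromosome 11 (chr11:100886806-100939594).

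The inhibitors went apart from each other in ERBB2 KO 1. Socs1, which blocks JAK kinases directly, had 7.37, 5.16 and 3.85 CPM in WT, against 1.90, 4.16 and 4.26 CPM after ERBB2 KO. ERBB2 KO 1 was below every other library, at 17 reads (exact 95% Poisson interval 1.11 to 3.05 CPM, counting error only), and ERBB2 KO 2 and ERBB2 KO 3 fell between WT 3 and WT 2. The log2 difference was -0.56 ± 0.36 (interval -1.41 to 0.30, limma adjusted p = 0.517). It was -0.27 without ERBB2 KO 1 and -0.97 against WT 1 alone, the WT library with the highest level, and stayed negative under each alternative that tested it.

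Socs3, which binds gp130 and the kinases attached to it, had 25.9, 15.95 and 16.07 CPM in WT, against 46.7, 12.4 and 12.4 CPM after ERBB2 KO. ERBB2 KO 2 and ERBB2 KO 3 were nearly equal and below all 3 WT libraries, while ERBB2 KO 1 was at 1.80 times WT 1, the next highest. The log2 difference of 0.04 ± 0.52 (interval -1.18 to 1.26, limma adjusted p = 0.977) therefore averaged libraries that lay on opposite sides of WT, and 88.7% of all genes had a smaller spread within groups. Without ERBB2 KO 1 it was -0.57 (limma adjusted p = 0.344), against WT 1 alone -0.40, without WT 2 -0.07 and without WT 3 -0.06, and the range over alternatives was -0.57 to 0.35 (adjusted p 0.344 to 0.998).

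The promoters of the inhibitors are shown because STAT proteins are known to act through short DNA elements, and Socs1 and Socs3 are well known as STAT target genes. The stretches run from 250 bases before to 50 bases after 1 transcript start of each gene in a RefSeq promoter table (GRCm38.p6), 5′ to 3′ on the strand of the gene, with capitals marking matches to either of the searched motifs. These were the interferon-stimulated response element (ISRE, searched as TTTC and again TTTC after 2 free bases), and the gamma-activated site (GAS, TTCNNNGAA), both searched on both strands. For Socs1 that start is the outer end of the annotated gene, while for Socs3 it lies 970 bases inside it, so that the whole Socs3 stretch is within the annotated gene.
Socs1 (chr16:10785487-10785786, minus strand): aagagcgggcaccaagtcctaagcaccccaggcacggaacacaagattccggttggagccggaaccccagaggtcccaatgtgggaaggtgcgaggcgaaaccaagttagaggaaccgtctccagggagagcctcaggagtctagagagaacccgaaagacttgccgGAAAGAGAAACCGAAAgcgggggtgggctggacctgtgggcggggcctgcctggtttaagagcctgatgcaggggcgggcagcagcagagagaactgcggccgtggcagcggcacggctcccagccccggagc
Socs3 (chr11:117969317-117969616, minus strand): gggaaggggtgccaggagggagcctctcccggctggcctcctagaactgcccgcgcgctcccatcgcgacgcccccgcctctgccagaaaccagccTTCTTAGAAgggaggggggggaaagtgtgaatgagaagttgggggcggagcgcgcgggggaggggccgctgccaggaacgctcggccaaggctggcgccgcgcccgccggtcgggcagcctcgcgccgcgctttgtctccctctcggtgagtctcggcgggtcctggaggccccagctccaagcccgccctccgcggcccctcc
The Socs1 stretch held 2 overlapping ISRE matches on the reverse strand, starting 83 and 77 bases before the start, and no GAS match. The Socs3 stretch held 1 GAS match, starting 154 bases before the start, and no ISRE match. Among the other 8 genes, GAS letters occurred in the promoters of Ifnar1 (TTCACGGAA, starting 5 bases before a transcript start that lies 183 bases inside the annotated gene) and Ifnar2 (TTCCTGGAA, starting 214 bases before the start). Of all 32851 promoters of the same length, 8.3% held a GAS match and 3.44% an ISRE match, against 3 and 1 of these 10. A match of letters is not a bound site, and binding was not measured.

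Set side by side, the levels of the 10 genes relative to the WT mean differed mostly in ERBB2 KO 1, a reading chosen after the values were seen. ERBB2 KO 1 was the highest library for Ifnar2, Ifngr1, Ifngr2, Jak1, Jak2, Stat3 and Socs3, 7 of 10 against 26.1% of all tested genes, and the lowest for Socs1, 1 of 10 against 24.9%. The median of the 10 genes over the WT mean was 0.77 on the log2 scale in ERBB2 KO 1, -0.10 in ERBB2 KO 2 and -0.28 in ERBB2 KO 3, while the median over all tested genes lay within 0.06 of 0 in each. In ERBB2 KO 1 the largest deviations were 2.04 for Stat3, 1.35 for Jak2, 1.27 for Socs3, 1.12 for Ifnar2 and -1.12 for Socs1. In ERBB2 KO 2 and ERBB2 KO 3 the pattern was narrower, with Stat3 at 0.91 and 0.59 above the WT mean and Socs3 at -0.57 in each. In 3 of the 10 genes (Ifngr1, Jak1 and Socs3) both of these libraries were below every WT library, against 21.5% of all genes. In 0 of the 10 were both above every WT library. The share of all genes with both above was not determined, so that count has no background to be read against. ERBB2 KO 1 was also the library with the fewest reads, the highest summed fibroblast and leukocyte markers (321 CPM, of which 267 CPM were Dcn, and 43.8 CPM), the lowest Col1a2 (0.896 CPM) and the lowest Krt19 (0.112 CPM), and their part in its levels was not tested.

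**Figure D3:**
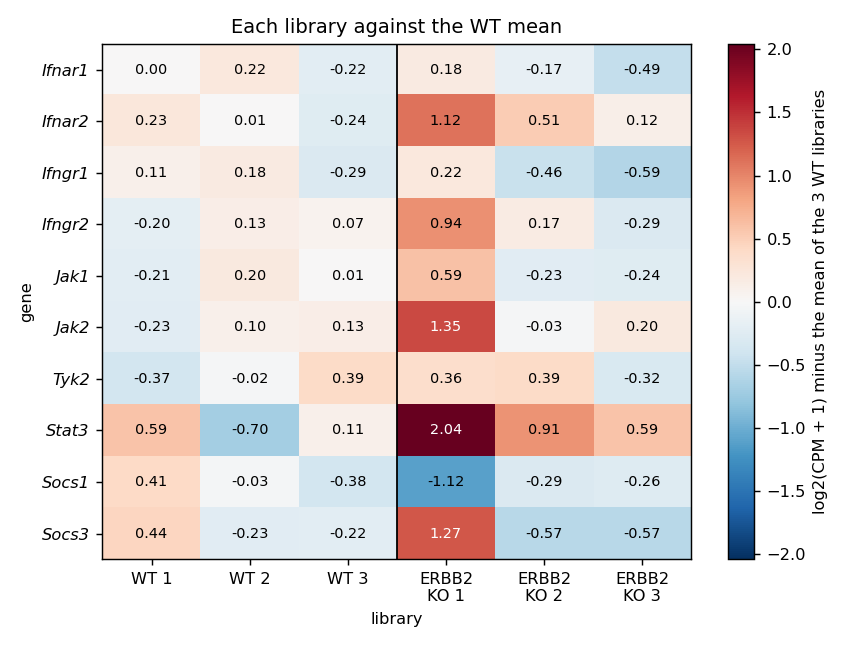
Level of each gene (rows) in each library (columns) as log2(CPM + 1) minus the mean of the 3 WT libraries, with red for higher and blue for lower. The ERBB2 KO 1 column holds the highest and the lowest values of the map, 2.04 for Stat3 and -1.12 for Socs1, and Socs3 is at 1.27 there and at -0.57 in ERBB2 KO 2 and ERBB2 KO 3.

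Genes whose profile over the 6 libraries lay closest to each of the 10 were found by the root mean square distance of centred log2(CPM + 1). For Ifngr2 the closest of all tested genes was Il6st, which encodes gp130, at a distance of 0.07. Il6st had 67.8, 85.3 and 77.2 CPM in WT, against 158, 79.7 and 59.5 CPM after ERBB2 KO, so that, as with Ifngr2, ERBB2 KO 1 was highest and ERBB2 KO 3 lowest. Closest to Stat3 were Fes, a cytoplasmic tyrosine kinase, and Smarca2, a chromatin remodelling ATPase, at 0.14 each, and Smarca2 reached 254 CPM in ERBB2 KO 1 against 35.5 to 116 CPM elsewhere. Closest to Jak2 were Ksr1 (0.08) and Nrip1 (0.10), to Jak1 Eps15 (0.03) and Chd6 (0.04), and to Tyk2 Heatr5b (0.08) and AI413582 (0.10).

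The neighbours of the remaining genes were Unc45a (0.06) and Dpm1 (0.08) for Ifnar1, N4bp2l1 (0.08) for Ifnar2, and Gpcpd1 (0.05) and Mir703 (0.07) for Ifngr1. They were Myo6 (0.11) and Jup (0.13) for Socs3 and Sap18b (0.09) and Chuk (0.10) for Socs1. Chuk, a kinase of the NF-kappaB pathway, had 14.9 CPM in ERBB2 KO 1 against 29.3 to 42.2 CPM elsewhere, the same low library as for Socs1. Among the 10 genes themselves the closest pair was Ifnar1 and Ifngr1 at 0.12, and Socs1 was the farthest from the rest, its nearest being Ifnar1 at 0.54. With 6 libraries and many genes, small distances are a description of these libraries only.

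Beyond the 10 genes, 9 lists of the same pathway held 127 genes, of which 102 had a row and 69 were tested. Of these 69, 0 were called by limma (adjusted p 0.328 to 0.999), 34 had a higher and 35 a lower estimate after the knockout, and 17 (11 higher, 6 lower) had an unadjusted p under 0.05. Of all tested genes 46.8% had a higher estimate and 13.2% an unadjusted p under 0.05 (5.96% higher, 7.27% lower). The 14 interferon ligands of these lists had no row in the deposited table, so no level can be given for them.

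Of the gp130 ligands, 3 of 9 were tested and all 3 were lower in ERBB2 KO by the estimate, also without ERBB2 KO 1. Il11, interleukin-11, had 5.46, 4.19 and 1.21 CPM in WT, against 1.23, 0.509 and 0.727 CPM after ERBB2 KO (log2 difference -1.22 ± 0.46, limma adjusted p = 0.350, -1.38 without ERBB2 KO 1 and -1.85 against WT 1 alone). Lif, leukaemia inhibitory factor, had 3.64, 3.46 and 1.06 CPM in WT, against 1.12, 0.594 and 0.519 CPM after ERBB2 KO (-1.02 ± 0.41, limma adjusted p = 0.361, -1.17 without ERBB2 KO 1 and -1.43 against WT 1 alone). Both overlapped between the groups, through WT 3 and ERBB2 KO 1. Clcf1 had a difference of -0.51 ± 0.44 (-0.19 without ERBB2 KO 1 and -1.22 against WT 1 alone), and Il6 was at or under 0.208 CPM in every library.

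Other receptors that use JAK kinases were often highest in ERBB2 KO 1, in 10 of the 11 tested, against 26.1% of all genes. Il11ra1, the receptor of interleukin-11, had 16.4, 1.29 and 5.58 CPM in WT, against 48.9, 18.7 and 14.5 CPM after ERBB2 KO (log2 difference 1.95 ± 0.76, limma adjusted p = 0.358, 1.45 without ERBB2 KO 1 and 0.51 against WT 1 alone). Il13ra1 and Il4ra, chains of the interleukin-4 and interleukin-13 receptors, were not called either. Il13ra1 had a difference of 1.53 ± 0.81, which was 0.76 without ERBB2 KO 1 and 0.26 against WT 1 alone. Il4ra had 0.41 ± 0.30, which was 0.23 without ERBB2 KO 1, 0.12 without WT 3 and 0.0016 against WT 1 alone. Csf2rb, the shared beta chain of the GM-CSF receptor, was picked out after its values were seen, with 47.9 CPM in ERBB2 KO 1, 0.273 CPM (3 reads) in WT 1 and 0 in the other 4 libraries. The median difference of this list was 0.30, and 0.06 without ERBB2 KO 1.

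Of the other JAK and STAT genes 7 of 8 were tested, with a median difference of 0.15 (-0.02 without ERBB2 KO 1). Stat5a had 5.28, 0.967 and 2.87 CPM in WT, against 12.8, 7.97 and 7.58 CPM after ERBB2 KO, without overlap between the groups (1.49 ± 0.46, limma adjusted p = 0.341, 1.27 without ERBB2 KO 1 and 0.70 against WT 1 alone). Stat2, a STAT of type I interferon signalling, had a difference of 0.86 ± 0.39 (0.28 against WT 1 alone and 0.68 without ERBB2 KO 1).

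The other SOCS genes were lower in ERBB2 KO by the estimate in 6 of 6, with a median of -0.24. Without ERBB2 KO 1, 5 of 6 were lower. The libraries of the knockout did not move together, since 4 of the 6 were highest in ERBB2 KO 1, against 26.1% of all tested genes. Of all tested genes 46.8% had a higher estimate. Socs2, an inhibitor of growth hormone signalling, varied most. It had 12.9, 25.8 and 19.3 CPM in WT, against 62.7, 0.763 and 6.23 CPM after ERBB2 KO (-1.07 ± 1.16, limma adjusted p = 0.695, -2.46 without ERBB2 KO 1, 0.13 without ERBB2 KO 2 and -0.58 against WT 1 alone). Like Socs3, Socs2 was above every WT library in ERBB2 KO 1 and below every one in ERBB2 KO 2 and ERBB2 KO 3, and Cish, chosen after its values were seen, did the same. Cish had 2.37, 4.67 and 4.90 CPM in WT, against 11.1, 0.848 and 2.29 CPM after ERBB2 KO. Socs6 had groups that did not overlap (-0.27 ± 0.17, -0.22 without ERBB2 KO 1 and -0.16 against WT 1 alone). Socs5 had a difference of -0.32 ± 0.35 (-0.69 without ERBB2 KO 1, 0.0079 without ERBB2 KO 2 and -0.26 against WT 1 alone).

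Among 11 tested negative regulators 10 were lower and 1, Ptpn6, was higher by the estimate, with the same counts without ERBB2 KO 1. Ptpn6, the phosphatase SHP-1, had 3.82, 2.90 and 3.02 CPM in WT, against 9.86, 9.07 and 4.26 CPM after ERBB2 KO, without overlap (0.98 ± 0.35, limma adjusted p = 0.350, 0.78 without ERBB2 KO 1 and 0.79 against WT 1 alone). Ptpn2 and Ptpn1, phosphatases that act on JAK kinases, had differences of -0.60 ± 0.27 and -0.37 ± 0.19 (limma adjusted p = 0.398 and 0.430). These were -0.78 and -0.42 without ERBB2 KO 1 but -0.17 and -0.08 against WT 1 alone. Usp18, which holds back IFNAR2 signalling, was at 0 in all WT libraries, whereas ERBB2 KO 1 to ERBB2 KO 3 had 0.336, 0 and 0.104 CPM, at or under the limit of 3 reads.

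**Figure D4:**
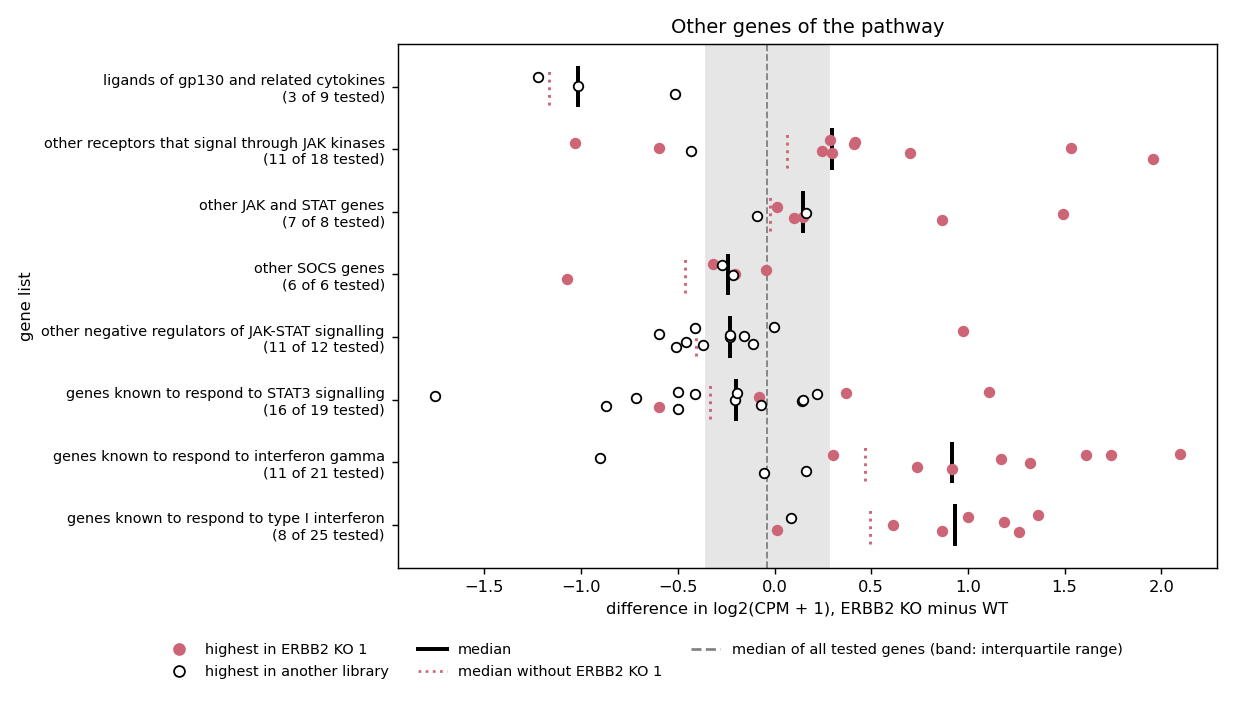
Difference between ERBB2 KO and WT in log2(CPM + 1) for the tested genes of 8 pathway lists, 1 point per gene, red where ERBB2 KO 1 was the highest library. Black bars are list medians, dotted red bars the medians without ERBB2 KO 1, and the grey band with its dashed line the interquartile range and the median of all tested genes. The lists of interferon gamma and type I interferon response have medians of 0.92 and 0.93, which are 0.47 and 0.49 without ERBB2 KO 1.

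Genes known to respond to STAT3 or to interferons were compared at the level of RNA. Phosphorylation of STAT proteins was not measured, so these levels do not show whether the pathway was active. Of the 16 tested genes known to respond to STAT3, 5 were higher and 11 lower (likewise 5 and 11 without ERBB2 KO 1). Their median was -0.20, while the estimate of Stat3 itself was higher in ERBB2 KO. Cebpb, a transcription factor of the acute phase, had 27.0, 21.6 and 14.6 CPM in WT, against 67.9, 57.7 and 23.6 CPM after ERBB2 KO (1.11 ± 0.43, limma adjusted p = 0.353, 0.82 without ERBB2 KO 1 and 0.72 against WT 1 alone). Timp1, an inhibitor of matrix proteases, had 186, 1235 and 382 CPM in WT, against 77.2, 179 and 162 CPM after ERBB2 KO (-1.76 ± 0.67, limma adjusted p = 0.350). It was -1.38 without ERBB2 KO 1, -1.02 without WT 2, the highest library, and -0.50 against WT 1 alone. Ccnd1, cyclin D1, had a difference of -0.87 ± 0.35 (-1.13 without ERBB2 KO 1 and -0.19 against WT 1 alone). In ERBB2 KO 1, where Stat3 and Socs3 were highest, Lcn2 had 51.4 CPM against at most 1.21 CPM elsewhere. Cebpd had 30.9 CPM there against at most 6.92 CPM elsewhere, and both were picked after their values were seen. Of the 16 tested genes of this list 4 were highest in ERBB2 KO 1, near the 26.1% of all tested genes.

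Of the genes known to respond to interferon gamma, 9 of 11 tested were higher by the estimate (8 of 11 without ERBB2 KO 1), against 46.8% of all genes. An unadjusted p under 0.05 was found for 4 of these 9, against 5.96% of all genes in that direction. Gbp7, an interferon-induced GTPase, had 1.82, 0 and 0.905 CPM in WT, against 20.2, 5.26 and 2.18 CPM after ERBB2 KO (2.10 ± 0.72, limma adjusted p = 0.350, 1.35 without ERBB2 KO 1 and 1.41 against WT 1 alone). Gbp2 had a difference of 1.74 ± 0.64 (1.05 without ERBB2 KO 1 and 1.35 against WT 1 alone) and Gbp4 of 1.61 ± 0.55 (1.32 and 0.56). Gbp5 and Iigp1 were at 0 in every WT library, and Iigp1 had 4.93, 0 and 0.208 CPM in ERBB2 KO.

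All 8 tested genes known to respond to type I interferon were higher by the estimate (6 of 8 without ERBB2 KO 1), against 46.8% of all genes, and 21 of the 24 with a row were highest in ERBB2 KO 1, against 25.6% of the 20259 rows with a read. Xaf1, an apoptosis-related interferon target, had 7.65, 8.86 and 11.2 CPM in WT, against 23.0, 14.2 and 21.8 CPM after ERBB2 KO, without overlap (1.00 ± 0.28, limma adjusted p = 0.328, 0.88 without ERBB2 KO 1 and 1.23 against WT 1 alone). Ddx58, encoding the RNA sensor RIG-I, had 9.10, 6.20 and 11.1 CPM in WT, against 43.1, 22.0 and 11.0 CPM after ERBB2 KO (1.27 ± 0.48, 0.80 without ERBB2 KO 1 and 1.19 against WT 1 alone). Bst2, tetherin, had a difference of 1.36 ± 0.53 (1.01 without ERBB2 KO 1 and 0.71 against WT 1 alone). Ifit3b, Mx1, Oas1a and Zbp1 were at 0 in every WT library, and Zbp1 had 3.02, 0.339 and 0.415 CPM in ERBB2 KO. In ERBB2 KO 2 and ERBB2 KO 3 this was near the limit of 3 reads (0.254 and 0.312 CPM). Of the 24 genes with a row, 7 stayed under 1 CPM in every library. Like the genes of these lists, the receptors and kinases above them showed no called difference in the main test. Ifnar1 and Ifngr1 had lower, and Ifnar2 and Ifngr2 higher, mean levels in ERBB2 KO. The difference of Ifnar1 was 0.0048 without ERBB2 KO 3.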

How the data were processed

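RNA of 6 libraries (3 WT, 3 ERBB2 KO) was sequenced and counted by the authors. The labels name a TruSeq total RNA kit, the study's methods a Lexogen QuantSeq 3′ kit, and which applied is not settled. The submitters' notes name the build mm10, and aligner, counter and strand setting are not given in the sources used here. What the authors deposited are log2 values of CPM plus a prior, with a shared floor of -2.48 (0.179 CPM). Undoing it gave whole reads for 100% of values (tolerance 0.1 of a read). Of the rows, 14 with date-like symbols were not tested.

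The test was limma 3.58.1 (R 4.3.3) on log2(CPM + 1) of the 11803 genes that reached 1 CPM in 3 or more libraries (eBayes with trend, no term but group, two-sided, Benjamini-Hochberg, threshold 0.05). It was checked on simulated data. The simulated libraries followed their group labels, unlike the libraries here, so that check does not cover this setting. An exact permutation test of 3 against 3 libraries cannot give a p below 0.1. Differences on this scale understate changes of low genes. The 10 genes, the lists and the tests were chosen with earlier results of these data known. Named are the 10 genes, the 3 genes with the smallest unadjusted p of each list, list genes at 0 in every library of a group, Il10rb, Cd274, Pdcd1lg2, Erbb2 and the 2 nearest genes by profile, Gm and Rik symbols passed over. Some genes that this rule selects are not reported here, though they stay in every count. All 10 symbols matched RefSeq (GRCm38.p6, the assembly of mm10), from which coordinates and promoters come. Of the 10, Ifnar2, Jak1 and Stat3 overlap another annotated gene. Alternatives were the pseudocount, the filter, the scaling, voom, array weights, each library left out, the replicate block and WT 1 as the only WT library.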

Additional observations from a re-analysis of the deposited data

How the results depend on the processing

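None of the 10 genes was called under any of the 17 alternatives (lowest adjusted p 0.0865, Stat3 with array quality weights). Over all genes array quality weights gave 1759 calls and 8 among the pathway lists, and leaving out 1 library gave 0 to 146 (146 without WT 1, 30 without ERBB2 KO 1), where the main test gave 0. Of 168 values of the 10 genes, 155 kept their direction and 13 reversed. With array quality weights Ifngr2 was -0.081, Jak1 -0.21, Tyk2 -0.21 and Socs3 -0.27. When each library was left out in turn, Ifnar1 ran from -0.33 to 0.0048, Ifngr2 from -0.062 to 0.55, Jak1 from -0.24 to 0.18, Tyk2 from -0.042 to 0.37 and Socs3 from -0.57 to 0.35. With WT 1 as the only WT library, where that library is assumed to vary like the others, Socs3 was -0.40. Of the 23 other named genes of the lists, Socs2 ran from -2.46 to 0.13 and Socs5 from -0.69 to 0.0079 with a library left out, and with array quality weights Ccnd1, Gbp4, Ptpn1, Ptpn2 and Stat5a were called (-1.32, 1.69, -0.51, -0.83 and 1.39). The cause was not tested. With the replicate block 0 genes were called (1286 at an unadjusted p under 0.05), and Stat3 had a limma adjusted p of 0.416. Same-numbered libraries did not deviate together over all tested genes (correlations -0.22, -0.16 and -0.05). With 3 libraries per group these correlations cannot show whether samples of the same number were handled together, so pairing is not settled. The depth gave 17 reads for Socs1 in ERBB2 KO 1 and 31 for Ifnar1 in ERBB2 KO 3, the values most limited by counting. The stricter filter of 5 CPM left Ifnar1 and Socs1 untested.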
